A study of Homo sapiens with 2 samples.

Results

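The 8 genes described here are the 5 Rel subunits of the transcription factor NF-kB (NFKB1, NFKB2, REL, RELA and RELB) and the 3 HIVEP genes (HIVEP1, HIVEP2 and HIVEP3), whose zinc finger proteins bind the same kappa-B DNA sites. They were taken by name from the 14232 genes named by probe sets with a single gene symbol, and all 8 were measured, each by 1 probe set. The group was chosen by the differences between these same arrays, which were already known, so those differences are given as a description. The samples were Hoechst-sorted J82 cells: the side population (SP), which keeps little of the DNA dye, and the non-side population (NSP), the cells outside that gate. J82 is a long-established line from a human bladder carcinoma, both populations came from it, and the labels name no treatment for either. Each population was measured on 1 human exon array, so there is no replicate, no test and no p-value, and every value below describes these arrays only.

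Rel proteins work as dimers that bind DNA through a shared Rel homology domain. RELA, RELB and REL carry a transactivation domain, whereas NFKB1 and NFKB2 encode the precursors p105 and p100, from which the DNA-binding subunits p50 and p52 are made. In resting cells IkB proteins hold most dimers in the cytoplasm, and IkB kinases release them after stimuli such as interleukin-1 or tumour necrosis factor. The HIVEP proteins, also called Schnurri after the fly homologue, are very large factors with pairs of C2H2 zinc fingers. They were found as binders of kappa-B-like enhancers, and they also take part in BMP-SMAD signalling, as shown in fly and mouse.

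HIVEP1 and HIVEP2 had the largest differences, both higher in SP. HIVEP3 was higher by about as much as REL, and the other Rel genes had smaller differences in both directions. Signals are RMA values on the log2 scale, and the difference is the SP value minus the NSP value, so that 1 unit is a doubling. As a mark of adequate signal the median of all values on both arrays, 7.44, was used and is called the floor. Of 7549 genes whose higher value reached it, 3.10% exceeded NSP by 1.5-fold or more in SP, and 1.43% fell short of it by that margin. The margin of 2-fold was met by 0.609% upward and 0.119% downward. Of the 7 members that reached the floor, HIVEP1 met both margins upward and none met either downward. Since these differences chose the members, nothing is read from that count.

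HIVEP1, the founding member of the family, had a signal of 10.05 in SP, against 8.75 in NSP. It was 2.45-fold higher in SP, a log2 difference of 1.29, and 13 of the 7549 genes at the floor lay above it. Both of its values were well above the floor, by 2.61 in SP and 1.32 in NSP. Among the members past 1.5-fold, HIVEP1 alone had both values above the floor. The arrays measured bulk RNA, in which fewer cells with a transcript and less of it per cell cannot be told apart.

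HIVEP2, which in mouse lymphocytes and adipocytes acts as a DNA-binding regulator, had a signal of 7.38 in SP, against 6.37 in NSP. The log2 difference was 1.01, or 2.01-fold higher in SP, but both values lay under the floor, the SP value by a margin of only 0.06. Without any floor, 2.24% of the 14232 genes exceeded NSP by 1.5-fold in SP and 1.23% fell short by as much, and at 2-fold these shares were 0.372% and 0.126%. HIVEP1 and HIVEP2 were the members past either margin, both upward. Dim RMA values understate differences in general, and the table gives no detection above background, so the size for HIVEP2 is the less certain of the pair.

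HIVEP3, a regulator of bone formation in mice, had 7.67 in SP, against 7.25 in NSP, a log2 difference of 0.42 (1.34-fold). Its SP value lay 0.23 above the floor and its NSP value 0.19 under it. The order within the family was therefore HIVEP1, HIVEP2 and HIVEP3 by difference. With 1 array each the error of that order cannot be estimated. Over the 3 genes the median difference was 1.01, the value of HIVEP2, against 0.0 over all 14232 genes. For HIVEP1 and HIVEP3, the pair at the floor, it was 0.86, against -0.05 over all genes at the floor. HIVEP3 reached the floor only through SP, and these differences chose the members, so nothing is read from either contrast.

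**Figure D1:**
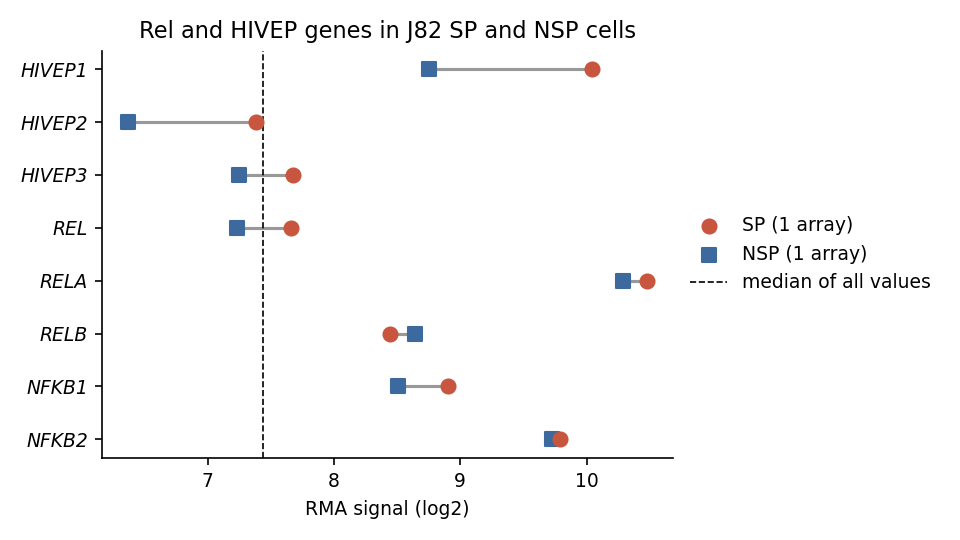
Signal of each gene (log2, horizontal axis) in SP (circles) and NSP (squares), 1 array each, with no error bars because there are no replicates. HIVEP1 runs between 10.05 and 8.75 and HIVEP2 between 7.38 and 6.37, while NFKB2 nearly overlaps and RELB alone has its SP point to the left of its NSP point.

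Among the Rel subunits with a transactivation domain, REL (c-Rel), best known from lymphocytes, was at 7.66 in SP, against 7.23 in NSP. Its log2 difference of 0.42 (1.34-fold higher) lay across the floor, with the NSP value 0.20 under it. RELA (p65), the transactivating partner in the most common NF-kB dimer, was bright in both, at 10.48 in SP and 10.29 in NSP. That is a log2 difference of 0.19, or 1.14-fold higher. RELB, the subunit of the alternative pathway, was the only member with a lower value in SP, at 8.45 in SP, against 8.64 in NSP, a log2 difference of -0.20 (1.15-fold lower).

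Of the genes for the precursor subunits, NFKB1 was at 8.90 in SP, against 8.51 in NSP, a log2 difference of 0.39 (1.31-fold higher). NFKB2, the precursor subunit that pairs with RELB, hardly differed, at 9.79 in SP and 9.72 in NSP (difference 0.06, 1.04-fold). The genes of the canonical subunits NFKB1, REL and RELA were higher by 0.19 to 0.42, and those of the alternative pair NFKB2 and RELB lay at 0.06 and -0.20. With 1 array for each population, a split between these pathways was not tested. None of the 5 Rel genes reached 1.5-fold, where 3.10% of all genes at the floor were higher and 1.43% lower by as much. Shares that small would give few or none among 5 genes. Their median difference was 0.19, against -0.05 over all genes at the floor. Since these differences chose the members, nothing is read from that count or median.

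Of all genes at the floor 40.1% were higher in SP. Of the 7 members there 6 had a higher SP value, and HIVEP2, under the floor, was higher too. The members were chosen by these differences, and REL and HIVEP3 reached the floor only through SP. Nothing is therefore read from that count or from the ranks that follow. RELB lay above 25.4% of all genes at the floor by its difference, NFKB2 above 69.6% and RELA above 83.9%. NFKB1, HIVEP3 and REL lay close together, above 93.6%, 94.2% and 94.2%. Gaps of this size also arise within a gene on these arrays: for 197 genes with more than 1 probe set, the differences of those probe sets lay a median of 0.20 apart, and in 72 they had opposite signs. The differences of RELA, RELB and NFKB2 were no larger than that median gap. Those of NFKB1, REL and HIVEP3 were under the gap that 10% of such genes exceeded, 0.60, and those of HIVEP1 and HIVEP2 were above it. A gap between probe sets is not the error of a single difference, and the members were chosen by their differences. The comparison is therefore no test of any member.

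**Figure D2:**
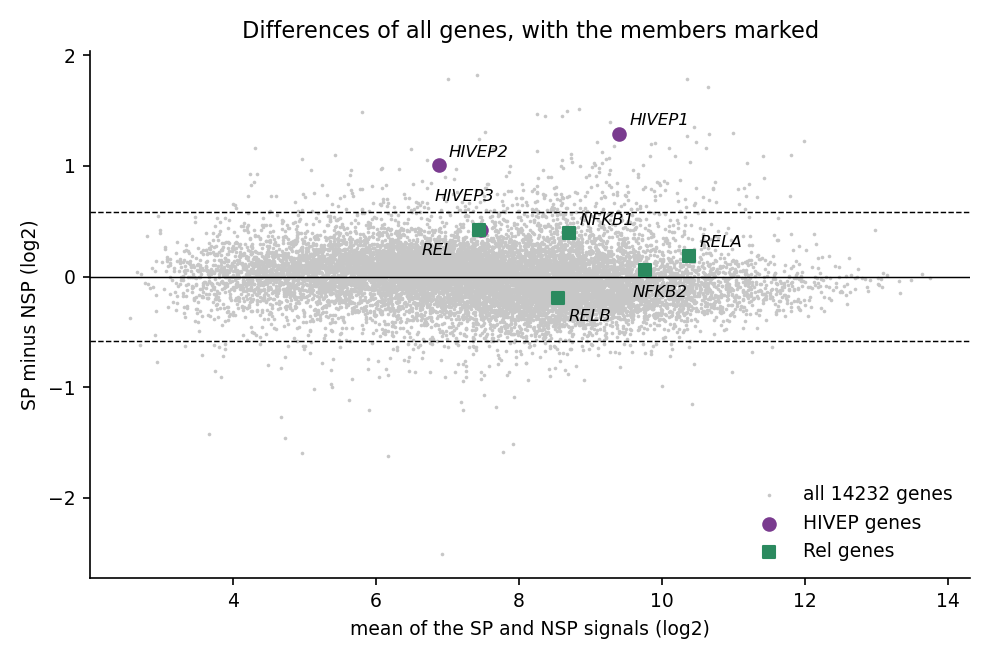
Difference between SP and NSP (log2, vertical axis) against the mean signal of each gene (log2, horizontal axis) for 14232 genes, with the HIVEP genes as circles and the Rel genes as squares; dashed lines mark 1.5-fold. HIVEP1 (1.29) and HIVEP2 (1.01) stand outside the dashed lines, and the REL square covers most of the HIVEP3 circle at 0.42.

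The start-site sequences of the Rel genes themselves hold kappa-B motifs, which the choice of members did not use. RefSeq windows (GRCh38.p14) from 250 bases before to 50 bases after a gene's start were available for 6 of the 8 genes, with 12 windows in all, and HIVEP1 and RELB had no entry. Windows were searched on both strands for the kappa-B consensus, which reads GGG, a purine, any base, A or T, a pair of pyrimidines and CC. A palindrome-like site can match it on both strands, shifted by 1 base. Of 35116 windows, 5.91% held a match, as did 7.09% of the 27305 genes they belong to. Among the Rel genes 3 of 4 with a window held the consensus (REL, NFKB1 and NFKB2), in 4 of their 8 windows. RELA held no match in its 2 windows, and HIVEP2 and HIVEP3 none in their 4, which says nothing about binding elsewhere.

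The windows that carry the matches are shown with the consensus letters in capitals and the rest in lower case, each read along the gene's own strand. The window of REL (chr2:60881324-60881623, plus strand) has a match 47 bases upstream of the start, which overlaps a second one on the other strand. That of NFKB1 (chr4:102501109-102501408, plus strand) has a match 49 bases upstream. The first of the NFKB2 windows (chr10:102394328-102394627, plus strand) has matches 107 and 78 bases upstream, and the farther overlaps another on the opposite strand. The second NFKB2 window (chr10:102395455-102395754, plus strand) has matches 176 and 21 bases upstream. The nearer of these has the same letters as the farther TNFAIP3 match given further on.
REL: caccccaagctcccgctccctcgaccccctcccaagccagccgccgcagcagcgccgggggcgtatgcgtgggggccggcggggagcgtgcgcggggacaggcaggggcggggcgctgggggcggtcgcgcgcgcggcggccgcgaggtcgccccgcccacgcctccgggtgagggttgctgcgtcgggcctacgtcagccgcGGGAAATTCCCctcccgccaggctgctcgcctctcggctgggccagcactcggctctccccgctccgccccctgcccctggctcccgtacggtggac
NFKB1: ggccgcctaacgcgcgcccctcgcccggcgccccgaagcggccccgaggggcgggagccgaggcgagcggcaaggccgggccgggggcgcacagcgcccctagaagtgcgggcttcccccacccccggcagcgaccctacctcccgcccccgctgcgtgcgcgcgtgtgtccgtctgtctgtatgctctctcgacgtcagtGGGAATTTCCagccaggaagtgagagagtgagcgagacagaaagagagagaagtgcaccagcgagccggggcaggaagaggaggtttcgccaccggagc
NFKB2, upstream window: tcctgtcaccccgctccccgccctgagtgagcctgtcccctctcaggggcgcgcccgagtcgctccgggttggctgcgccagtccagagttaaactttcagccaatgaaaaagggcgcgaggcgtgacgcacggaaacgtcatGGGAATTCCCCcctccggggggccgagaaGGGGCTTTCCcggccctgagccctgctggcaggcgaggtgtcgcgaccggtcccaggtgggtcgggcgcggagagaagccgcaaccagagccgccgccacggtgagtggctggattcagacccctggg
NFKB2, downstream window: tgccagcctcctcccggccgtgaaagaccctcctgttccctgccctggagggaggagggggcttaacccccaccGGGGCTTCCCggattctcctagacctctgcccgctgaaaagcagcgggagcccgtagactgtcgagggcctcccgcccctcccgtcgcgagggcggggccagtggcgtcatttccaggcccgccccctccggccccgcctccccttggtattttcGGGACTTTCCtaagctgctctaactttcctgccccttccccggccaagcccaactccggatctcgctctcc

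The start region of HIVEP2 is given for contrast, since it is the HIVEP gene with a window and a difference above 1.5-fold. It lies at chr6:142945684-142945983 on the minus strand, is rich in G and C, and has no consensus match, so it is in lower case throughout.
HIVEP2: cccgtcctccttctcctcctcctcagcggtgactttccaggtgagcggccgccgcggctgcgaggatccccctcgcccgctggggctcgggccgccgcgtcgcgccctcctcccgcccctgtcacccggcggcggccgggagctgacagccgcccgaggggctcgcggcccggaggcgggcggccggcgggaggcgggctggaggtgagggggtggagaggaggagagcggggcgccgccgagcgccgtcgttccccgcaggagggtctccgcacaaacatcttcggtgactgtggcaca

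Beside these letters, the differences in signal were as follows for the 6 genes with a window. REL, NFKB1 and NFKB2, with a match, had 0.42, 0.39 and 0.06. HIVEP2, HIVEP3 and RELA, with none, had 1.01, 0.42 and 0.19. These differences chose the members, so no relation is read from them.

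The inhibitors that hold Rel dimers were led by NFKBIA, which encodes IkB-alpha and is itself switched on by NF-kB. NFKBIA was at 11.41 in SP, against 10.75 in NSP, a log2 difference of 0.66 (1.58-fold higher), the only 1 of 5 measured IkB genes past 1.5-fold, where 3.10% of all genes at the floor were higher and 1.43% lower by as much. BCL3, a nuclear IkB protein that works with p50 and p52 dimers, differed by 0.40. NFKBIB (IkB-beta) differed by -0.29, NFKBIE (IkB-epsilon) by -0.23 and the nuclear inhibitor gene NFKBID by -0.05. The median over the 5 was -0.05, the same as over all genes at the floor. Among ubiquitin-editing inhibitors, TNFAIP3 (A20) was at 11.12 in SP, against 9.76 in NSP, a log2 difference of 1.36, while CYLD, TNIP1, OTULIN and TNIP3 lay between -0.08 and 0.14.

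The kinases and adaptors upstream of the Rel proteins all lay inside 1.5-fold, in lists so small that the shares of all genes at the floor (3.10% higher and 1.43% lower) would give few or none. Of 7 IKK-family kinases and scaffolds at the floor none reached 1.5-fold, with extremes of 0.34 for the kinase gene TBK1 and -0.30 for the related IKBKE. The catalytic subunits CHUK and IKBKB differed by -0.15 and 0.03. All 16 receptor-proximal adaptors and ubiquitin ligases at the floor lay inside 1.5-fold, from -0.21 for SHARPIN, a subunit of the linear ubiquitin ligase, to 0.17 for TAB3, which recruits the kinase TAK1. Coregulators and modifiers of Rel proteins gave 0 of 11 past 1.5-fold, with the deacetylase gene SIRT1 at 0.51 and HDAC1 at -0.40.

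Genes that NF-kB is known to switch on ranged from clearly higher in SP to somewhat lower. Of 22 targets at the floor, 9 exceeded NSP by 1.5-fold or more in SP and 0 fell short by that margin (3.10% and 1.43% of all genes at the floor), with a median of 0.27 over those 22 against -0.05 over all genes at the floor. VCAM1, IL1B and TNFAIP8 reached the floor only through SP, and with both values at the floor 6 targets were at least 1.5-fold higher. The list overlaps genes already known to be high on these arrays, so its count is no independent sign of direction. VCAM1, an adhesion molecule for leukocytes, was at 8.33 in SP, against 6.50 in NSP, and the cytokine gene IL1A at 11.25 in SP, against 9.46 in NSP. Differences of 1.30 for IL1B, 1.30 for CCL2, 1.01 for CXCL8, 0.89 for TNFAIP8, 0.84 for IER3, 0.71 for IL6 and 0.59 for PLAU complete the 9. Others in the list lay below 0, among them ICAM1 (-0.18), CCL20 (-0.34) and GADD45B (-0.43).

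Kappa-B sites near the start of these regulated genes show the letters that Rel dimers and HIVEP zinc fingers are known to share, read here on the G-rich strand. The farther of the TNFAIP3 matches, 67 bases upstream, lies at chr6:137867192-137867201, and the nearer, 55 bases upstream, at chr6:137867204-137867213. The VCAM1 site lies at chr1:100719680-100719689. The NFKBIA site lies at chr14:35404821-35404830 and the IL6 site at chr7:22727127-22727136. The consensus was found in 12 of 27 target genes with a window, in 5 of 5 IkB genes and in 0 of 8 IKK genes, against 7.09% of all genes. The targets were listed because NF-kB is known to switch them on, so no conclusion is drawn from these shares.
TNFAIP3, farther match: GGGACTTTCC
TNFAIP3, nearer match: GGGGATTTCC
VCAM1: GGGATTTCCC
NFKBIA: GGGAATTTCC
IL6: GGGATTTTCC

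Genes tied to HIVEP proteins by earlier work, mostly in mouse, were higher in SP for 7 of the 9 at the floor, against 40.1% of all genes there. JUN, whose AP-1 factor mouse HIVEP3 binds, was at 10.27 in SP, against 9.50 in NSP, a log2 difference of 0.77. PPARG, which mouse HIVEP2 helps to switch on together with SMAD1 and C/EBP-alpha, was at 9.20 in SP, against 8.50 in NSP (difference 0.69). RUNX2, the bone regulator that HIVEP3 and the ligase WWP1 control in mouse, differed by 0.56, and WWP1 by 0.30. The BMP-pathway SMAD genes gave 0.50 for SMAD1, 0.02 for SMAD4 and 0.04 for SMAD5. The receptor genes BMPR2 (-0.16) and SSTR2 (-0.02) were the lower ones. JUN and PPARG were the 2 past 1.5-fold (3.10% of all genes at the floor), and the median over the 9 was 0.30. SMAD1 reached the floor only through SP. The list was drawn up with results of these arrays known, so its counts are no independent sign of direction.

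**Figure D3:**
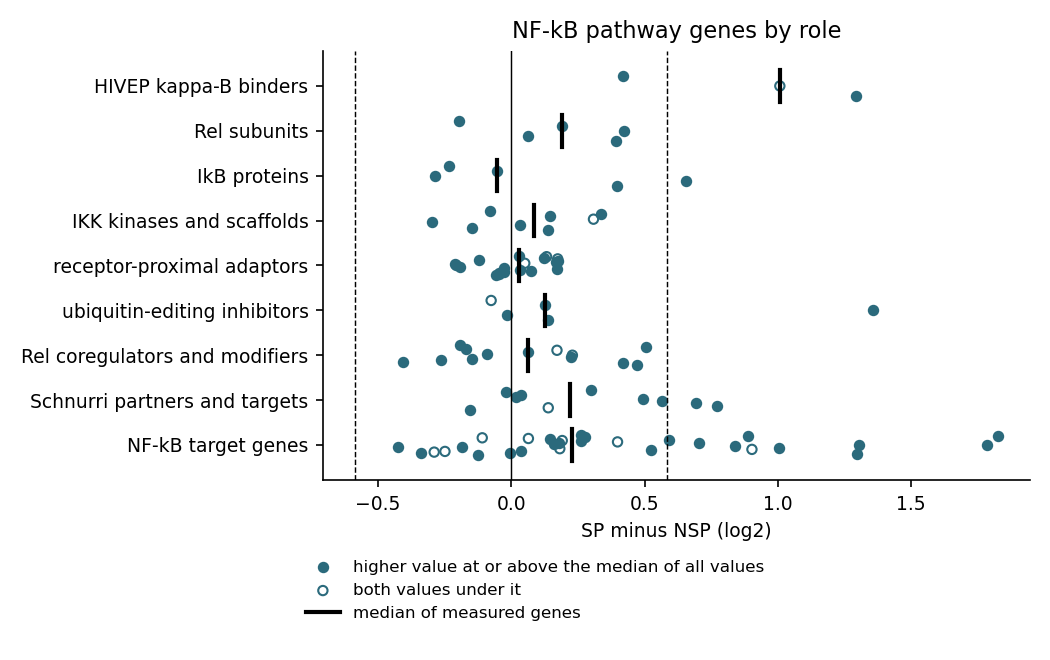
Difference between SP and NSP (log2, horizontal axis) of each measured gene, in rows by role; filled points reached the floor, open points did not, black bars are medians of the measured genes and dashed lines mark 1.5-fold. The kinase and adaptor rows lie inside 1.5-fold, while the HIVEP and target rows extend to 1.29 and 1.82.

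NFAT factors share the Rel homology fold and were set beside the Rel subunits after their values were seen. NFATC2 stood apart in that family, at 9.41 in SP, against 7.92 in NSP (2.82-fold higher), and the other NFAT genes lay between 0.03 and 0.12. Of these, NFATC1 and NFATC4 lay under the floor in both populations. No Rel subunit reached 1.5-fold (3.10% of all genes at the floor were higher and 1.43% lower by as much), and no test sets the families apart.

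The genes closest to HIVEP1 in their pair of signals, by distance over the 2 arrays, were RLF, SLC1A3, SMAD3, GRAMD2B and ATF3. RLF, which like HIVEP1 encodes a zinc finger protein, was nearest, at 9.92 in SP and 8.73 in NSP, a distance of 0.13. SMAD3, a TGF-beta signal transducer, was at 9.80 in SP and 8.73 in NSP, a distance of 0.25. With 2 arrays many genes must resemble each other, so likeness here is a matter of level alone.

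Neighbouring genes mostly had differences smaller in size than those of the members. The members were chosen by their differences and the neighbours by position alone, so nothing is read from that contrast. Next to HIVEP1 on chromosome 6, EDN1, which encodes endothelin-1, had a log2 difference of 0.56, and ADTRP, on the other side, one of -0.01 between dim signals. The neighbours of HIVEP2, ADGRG6 and AIG1, had -0.08 and -0.18, and those of HIVEP3, EDN2 and GUCA2B, had -0.13 and 0.02. SLC39A8, a zinc transporter gene next to NFKB1 on chromosome 4, went the other way from NFKB1, at -0.52, and MANBA on its other side had -0.06. Beside REL, PAPOLG had 0.26 and PUS10 0.01. CLPTM1 had -0.19, close to its neighbour RELB at -0.20, and CLASRP on the other side of RELB had -0.04. The neighbours of RELA and NFKB2 lay between -0.03 and 0.13.

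The HIVEP genes are long, and among genes at the floor the difference varied with gene span, though not steadily. HIVEP1 spans 204 kb and HIVEP2 194 kb on chromosome 6, and HIVEP3 spans 530 kb on chromosome 1. NFKB1 spans 116 kb, whereas REL (50039 bases), RELB (36729 bases), RELA (10257 bases) and NFKB2 (8420 bases) are shorter. Among 1058 genes of 100 to 300 kb at the floor the median difference was 0.09, and 7.28% exceeded NSP by 1.5-fold or more in SP. Among the 189 genes over 300 kb, the range of HIVEP3, these were 0.005 and 4.76%. The shorter ranges had medians of -0.07 under 10 kb (1654 genes, 2.96%), -0.11 from 10 to 30 kb (2210 genes, 1.49%) and -0.04 from 30 to 100 kb (2438 genes, 2.71%). HIVEP1 (1.29) lay above the level that 10% of genes of 100 to 300 kb exceeded, 0.51, and NFKB1 (0.39) below it. The part of span in these differences was not tested.

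**Figure D4:**
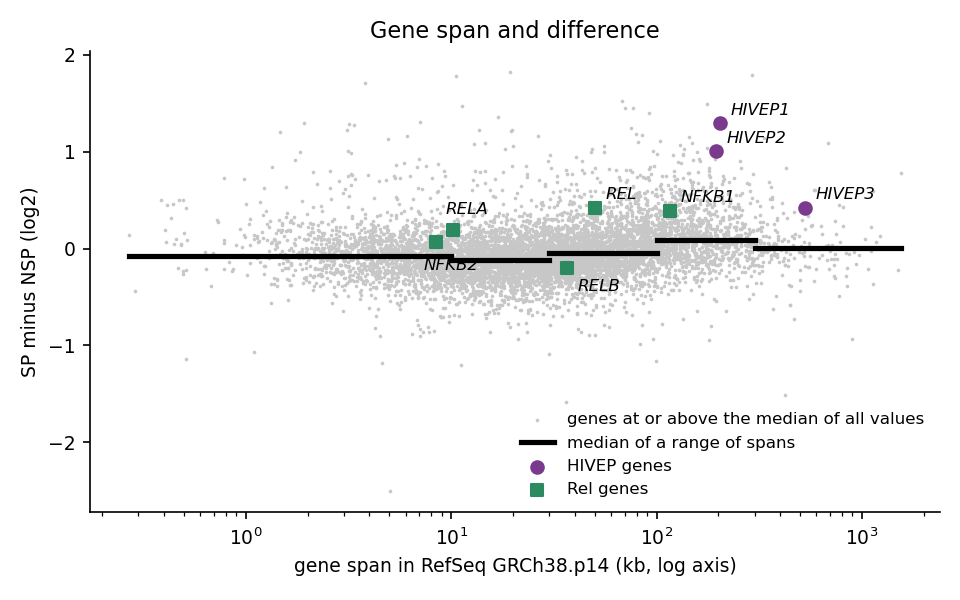
Difference between SP and NSP (log2, vertical axis) against gene span in kb (log axis) for genes at the floor, with black bars for the median of each range of spans, HIVEP genes as circles and Rel genes as squares; HIVEP2, under the floor, is shown too. The bar for 100 to 300 kb, at 0.09, is the highest of the 5, and HIVEP1 and HIVEP2 lie far above it.

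The cell line's own markers gave a mixed picture. The keratin gene KRT8 was bright, at 13.18 in SP and 12.77 in NSP, and VIM was at 10.12 in SP and 10.16 in NSP. The urothelial genes GATA3, UPK1B and UPK2 and the epithelial gene EPCAM lay under the floor in both populations. Immune markers, which matter because NF-kB genes are strong in leukocytes, had 6 of 9 measured genes under the floor. The leukocyte gene PTPRC was at 3.74 in SP and 3.80 in NSP, and CD68, also a lysosomal gene of other cells, was the brightest at 9.35 in SP and 9.66 in NSP. CD14 and NKG7 also reached the floor, with differences of 0.09 and 0.25. Of the 9 measured immune genes 6 were higher in SP and 3 lower. The immune list's summed signal (log2 of the sum of linear values) was 10.59 in SP and 10.65 in NSP. All 6 endothelial markers lay under the floor, with summed signals of 8.53 in SP and 8.38 in NSP.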

How the data were processed

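Per the labels' protocols, total RNA was amplified by a whole-transcript protocol, biotin labelled and hybridised to exon arrays. The authors deposited log2 values per probe set, made with RMA and Partek per the submitters' processing notes; the sources used here give no versions, filters or genome build. The table holds 22011 probe sets, with medians of 7.43 in SP and 7.44 in NSP, and the log2 scale follows from RMA and the range of the values. Of these, 14432 had 1 gene symbol, 2408 several and 5171 none. Only those with 1 symbol were named, with symbols updated through Entrez identifiers in RefSeq GRCh38.p14 (14404 matched), and probe sets of a gene were averaged. The number of arrays, 1 for each population, limits the precision, and no test was possible.

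Members, gene lists and tests were chosen with earlier results of these data known. The rule for named genes took all members, list members at or above the floor that differed by 1.5-fold or else the largest difference each way, the 5 genes nearest HIVEP1 and the nearest measured gene on each side of every member. Further list members (among them the other IkB genes, CHUK, IKBKB, ICAM1, CCL20, GADD45B, RUNX2, WWP1 and the SMAD and NFAT genes) were named after their values were seen. The calculations were tested on simulated data. Python 3.11.15, numpy 2.4.6, pandas 2.3.3, statsmodels 0.14.6 and matplotlib 3.10.9 were used.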

Additional observations from a re-analysis of the deposited data

How the results depend on the processing

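No paired analysis was possible because each population has 1 array, and no replicate could be left out. The alternatives were the brightest probe set per gene, counting probe sets with several symbols, centring on the median of all genes, removing a lowess trend on level (span 0.3), quantile normalisation, other floors and a 2-fold threshold; centring on the median of genes at the floor was added after seeing the data. Each member has 1 probe set with a single symbol and the median difference of all genes is 0.0. Taking the brightest probe set or centring on that median therefore could not move a member's value. Counting probe sets with several symbols left the values of the 8 members unchanged. Under the lowess, quantile and added centring settings the 8 members kept their direction, and with the reported value included they put HIVEP1 between 1.29 and 1.37, HIVEP2 between 0.97 and 1.06 and RELB between -0.20 and -0.13. With the mean in place of the median the HIVEP difference was 0.91. With no floor, and with the floor at the 25th percentile, 2 HIVEP genes were at least 1.5-fold higher in place of 1, the second being HIVEP2. At 2-fold, 46 of all genes were higher in SP and 9 lower, against 234 and 108 at 1.5-fold, and with no floor 175 were at least 1.5-fold lower. Of 200 counts recomputed for the other lists, 195 stayed within 1.5 times. The 5 exceptions were 5 target genes, 0 IkB genes and 0 Schnurri genes higher at 2-fold, and 2 IkB genes and 1 IKK gene higher once probe sets with several symbols counted. How dim probe sets such as those of HIVEP2 and REL stand above background cannot be computed from the table.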
